A study of Mus musculus with 16 samples.

Results

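The B cell receptor signalling genes described here are 31 genes that code for the signalling chains of the receptor, the kinases and adaptors next to it, the enzymes and transcription factors further down, and the membrane proteins and phosphatases that set its strength. They were chosen by name from what is known of the pathway, though with earlier results of these data known. All 31 were in the count table, among 24562 entries with 1 transcript kept per gene. RNA was sequenced from 16 mouse samples, all of the ApoE-/- strain, which lacks apolipoprotein E and is prone to atherosclerosis. Of these, 6 were B1b cells sorted from peritoneal lavage, 3 labelled wt (wild type) and 3 labelled cre, and 10 were whole aortas, 5 of each label. The series describes the second genotype as a deficiency of CD40 limited to B cells, and the comparison of the genotypes asks what that deficiency changes in B1b cells and in the vessel. The labels name neither the promoter that drives Cre nor the deleted exons, and give no age. Nothing in them states that samples are separate animals, and the p-values below speak only of the spread among these samples, which may be partly technical.

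The B cell receptor is a membrane antibody held by the CD79a and CD79b chains. When antigen binds, kinases of the Src family (LYN, BLK) phosphorylate the tails of these chains, SYK docks there, and BTK, the adaptor BLNK and phospholipase C gamma 2 turn the signal into calcium release and protein kinase C activity, which reach the transcription factors NFAT and NF-kB. Inhibitory membrane proteins (CD22, CD72, CD5, Siglec-G) recruit phosphatases such as SHP-1, the product of Ptpn6, and SHIP-1, the product of Inpp5d. B-1 cells, the innate-like B cells of the body cavities, are known for muted calcium responses through this receptor, for which CD5 and Siglec-G are held partly responsible. B1b cells are the B-1 cells with little CD5, and the sort asked for low B220, high IgM and low CD5, so the level of Cd5 and of Ptprc, the gene of B220, was partly set by the gate in both genotypes.

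The libraries held 6815829 to 9911226 counts in B1b cells and 1645926 to 7300894 in aortas. The 31 genes took 2.16% to 2.27% of the counts in B1b cells and 0.113% to 0.176% in aortas. Cd40, the targeted gene, stood at 38.5, 34.0 and 36.9 CPM (read counts scaled to a common library size) in wild-type B1b cells and at 30.0, 30.2 and 38.4 CPM in cre, a log2 ratio (log2 fold change, cre over wild type) of -0.16 that did not pass (edgeR adjusted p = 0.679). The deleted exons are not named and the table has 1 value per transcript, so this level checks no label. Of 11 T cell markers, 5 stayed under 1 CPM in all 6 B1b libraries, and the CD3 chain genes Cd3d, Cd3e and Cd3g reached at most 0.610, 1.03 and 3.56 CPM. The 11 together summed to at least 802 CPM in each, of which Cd2, an adhesion receptor that mouse B cells also carry, made up 794 to 996 CPM. The summed level of 6 B cell markers outside the 31 genes was 2859 to 3239 CPM in the wild-type ones. In aortas 6 smooth muscle markers summed to 8527 to 22689.6 CPM, against 11.8 to 17.4 CPM in B1b cells.

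Promoters were read for the genes on which the results turn, to show the sequence next to the values. Of the 31 genes, 25 had a promoter of 300 bases in the RefSeq table (GRCm38.p6), from 250 bases before the start site to 50 after it. The 4 shown belong to Cd79a, the receptor chain with the largest difference between B1b cells and aortas, and to Pik3ap1, Ptpn6 and Cd72, which had the largest or best supported lower values in cre B1b cells. Sequences run 5′ to 3′ along the gene, and capitals mark a match to CAGGTG, the E-box bound by E2A proteins, or to GAGGAAG, a site of the ETS family that includes PU.1, on either strand.
Cd79a: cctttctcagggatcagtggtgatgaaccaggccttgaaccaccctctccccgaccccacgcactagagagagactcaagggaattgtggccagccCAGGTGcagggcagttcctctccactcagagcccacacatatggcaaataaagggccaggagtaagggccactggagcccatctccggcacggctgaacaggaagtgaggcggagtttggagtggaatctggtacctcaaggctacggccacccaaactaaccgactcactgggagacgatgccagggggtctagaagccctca
Pik3ap1: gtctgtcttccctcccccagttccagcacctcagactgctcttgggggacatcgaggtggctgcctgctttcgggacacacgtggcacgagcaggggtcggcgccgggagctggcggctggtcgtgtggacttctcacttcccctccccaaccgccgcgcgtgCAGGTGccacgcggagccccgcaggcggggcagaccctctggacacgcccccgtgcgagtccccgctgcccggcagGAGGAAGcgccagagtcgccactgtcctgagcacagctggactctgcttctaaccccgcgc
Ptpn6: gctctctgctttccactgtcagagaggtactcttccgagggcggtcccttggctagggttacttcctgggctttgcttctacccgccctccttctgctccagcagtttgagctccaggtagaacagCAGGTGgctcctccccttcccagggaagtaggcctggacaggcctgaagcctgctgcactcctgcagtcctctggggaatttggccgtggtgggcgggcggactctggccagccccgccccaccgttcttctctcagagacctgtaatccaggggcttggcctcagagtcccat
Cd72: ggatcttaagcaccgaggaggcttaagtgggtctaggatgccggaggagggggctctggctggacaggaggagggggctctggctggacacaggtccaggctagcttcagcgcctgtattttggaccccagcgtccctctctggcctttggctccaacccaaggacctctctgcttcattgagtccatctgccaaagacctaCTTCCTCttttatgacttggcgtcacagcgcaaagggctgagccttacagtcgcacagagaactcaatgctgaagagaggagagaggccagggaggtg
The windows are chr7:24897247-24897546 on the plus strand, and chr19:41385053-41385352, chr6:124738660-124738959 and chr4:43454577-43454876 on the minus strand. Cd79a and Ptpn6 held the E-box, Cd72 held the ETS site, and Pik3ap1 held both, the E-box from -87 to -82 and the ETS site from -11 to -5 counted from the start site. No match overlapped another in these 4 windows. Of the 25 promoters, 11 held CAGGTG (44%, against 20% of 27025 promoters) and 10 held GAGGAAG (40%, against 13.5%). The octamer ATGCAAAT, bound by OCT factors, was in 2, those of Blnk and Prkcb (8%, against 1.75%). These shares describe letters in a window and were not tested.

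The first comparison placed the genes in wild-type B1b cells against wild-type aortas, to see which of them mark B cells and which were also transcribed in the vessel. Of the 31 genes, 30 were higher in B1b cells, where 35.4% of the 14339 genes tested were (edgeR quasi-likelihood test, adjusted p under 0.05). The other, Cd72, was lower, where 40.4% of all genes were. In the cre libraries 29 were higher, against 33.8% of all genes, and Cd72 was again lower, against 40.2%. The kinds of sample differ in handling and in their mixture of cells, and in a whole tissue fewer cells of a type and less RNA per cell cannot be told apart. The median log2 difference over all genes was -0.09 in wild type and -0.12 in cre, and with RLE size factors it was -0.19 and -0.26, so each difference below is relative to that shift.

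The receptor chains were among the genes furthest above the aortas, next to Ms4a1. Cd79a (NM_007655, chr7:24897497-24901858) was at 1448, 1288 and 1401 CPM in wild-type B1b cells and at 4.58, 4.28, 2.69, 1.58 and 4.20 CPM in wild-type aortas. Cd79b was at 2011, 1719 and 1877 CPM in B1b cells and at 10.6, 10.6, 9.50, 4.89 and 7.87 CPM in aortas. No aorta came near any B1b library for either chain. The log2 differences were 8.76 (SE 0.26, edgeR adjusted p = 3.56e-11) and 7.79 (SE 0.24, edgeR adjusted p = 3.65e-11). In the cre libraries they were 7.93 and 7.70. Per kilobase of transcript, the scale on which genes can be set side by side, Cd79b and Cd79a were the first and second of the 31 in wild-type B1b cells, with mean levels of 1564 and 946 CPM per kilobase.

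Among the kinases, Blk was the one with the B cell pattern of the receptor chains. Blk, a Src family kinase named for B lymphocytes, averaged 726 ± 62.5 CPM (SD, n = 3) in wild-type B1b cells and 5.12 ± 1.98 CPM (SD, n = 5) in wild-type aortas, a log2 difference of 7.24 (SE 0.28, edgeR adjusted p = 2.13e-10). Syk had the highest CPM of the 31 in B1b cells, 3612 to 3757, and was also found in every aorta, at 97.0 to 176 CPM, for a log2 difference of 4.78. Btk, the kinase whose loss in people causes X-linked agammaglobulinaemia, differed by 4.18 on the log2 scale, and Lyn, which is also used by myeloid cells, by 2.97.

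The adaptors and lipid enzymes differed least between the kinds of sample. Plcg2, the phospholipase that makes the calcium signal, and Blnk, its scaffold, had log2 differences of 3.65 and 3.58. Pik3cd, the catalytic subunit of the leukocyte phosphoinositide 3-kinase, differed by 3.06, and Pik3ap1, the adaptor BCAP that brings this kinase to the receptor, by 1.89. The exchange factors Vav1 and Vav2 differed by 2.07 and 2.12 and the general adaptor Grb2 by 1.73. Pik3r1, the regulatory subunit that most cell types carry, had the smallest higher value, 1.04 (SE 0.14, edgeR adjusted p = 1.75e-05), with 299.9, 389 and 339 CPM in B1b cells and 157, 186, 143, 169.9 and 196 CPM in aortas. All 8 of this group passed as higher in both genotypes, where 35.4% of all genes did in wild type and 33.8% in cre. In wild type no aorta reached the lowest B1b library for any of them, and the share of all genes so apart was not counted.

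Of the 6 distal genes, Prkcb, the protein kinase C of B cells, and Malt1, a protease on the way to NF-kB, differed most, by 4.37 and 4.34 on the log2 scale. Nfatc1 differed by 3.27, Rasgrp3, an exchange factor of Ras, by 1.75, and Nfatc2 and Bcl10, the partner of MALT1, each by 1.53. All 6 passed as higher in both genotypes, where 35.4% of all genes did in wild type and 33.8% in cre.

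The membrane proteins spread from the top to the bottom of the 31. Ms4a1, the gene of CD20, differed by 8.72 (SE 0.46), Siglecg by 7.22, Cd22 by 5.51 and the tetraspanin gene Cd37 by 5.26 on the log2 scale. Cd22 was read from the noncoding transcript NR_102723, the one of highest count. The lowest of its 4 transcripts had 95.7% of that count. Cd72, an inhibitory receptor of B cells, went the other way. It stood at 54.2, 26.7 and 39.6 CPM in wild-type B1b cells and at 136, 86.8, 105, 98.0 and 51.4 CPM in wild-type aortas, so that 1 aorta fell within the range of the B1b cells and 4 lay above it. The log2 difference was -1.23 (SE 0.29, edgeR adjusted p = 0.00223). In cre it was -1.74 (SE 0.32, edgeR adjusted p = 0.000342), and there every aorta lay above every B1b library. Per kilobase Cd72 was the highest of the 31 in the aortas of both genotypes (63.4 and 45.5 CPM per kilobase), followed in wild type by Ptpn6 at 34.4, Grb2 at 33.7 and Ptprc at 31.6. The summed level of 12 macrophage markers was 2435 to 5906 CPM in wild-type aortas and 114.3 to 224.7 CPM in wild-type B1b cells, and its part in the Cd72 level was not tested.

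Cd5 was the least abundant of the 31 in both kinds of sample. It stood at 2.90, 7.57 and 6.88 CPM in wild-type B1b cells, at 4.88, 1.76 and 7.02 CPM in cre B1b cells, and at 1.01 to 3.62 CPM in wild-type aortas. The groups overlapped, and the log2 difference of 1.44 in wild type (edgeR adjusted p = 0.0137) no longer passed without B1b wild-type replicate 2 (adjusted p = 0.0716) or replicate 3 (adjusted p = 0.0542). In cre it was 1.39 and did not pass (edgeR adjusted p = 0.0612). With no library left out it passed by limma-voom, at 1.46 (adjusted p = 0.0433). It also passed without B1b cre replicate 2 (edgeR adjusted p = 0.0388) or aorta cre replicate 2 (edgeR adjusted p = 0.0247). CD5 is also made by T cells, whose 11 markers summed to 33.0 to 93.4 CPM in wild-type aortas and to 802 to 928 CPM in wild-type B1b cells, where Cd2 alone stood at 794 to 920.0 CPM. Their part in the Cd5 level was not tested.

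The phosphatases and inhibitory adaptors, which most leukocytes share, all passed as higher in both genotypes. Of all genes 35.4% did in wild type and 33.8% in cre. The log2 differences in wild type were 5.68 for Ptpn22, 3.29 for Ptprc, 3.01 for Dok3, 2.99 for Ptpn6 and 2.41 for Inpp5d. Ptpn22 codes for the phosphatase LYP/PEP, Ptprc for CD45, and Dok3 for an adaptor that binds SHIP-1.

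**Figure D1:**
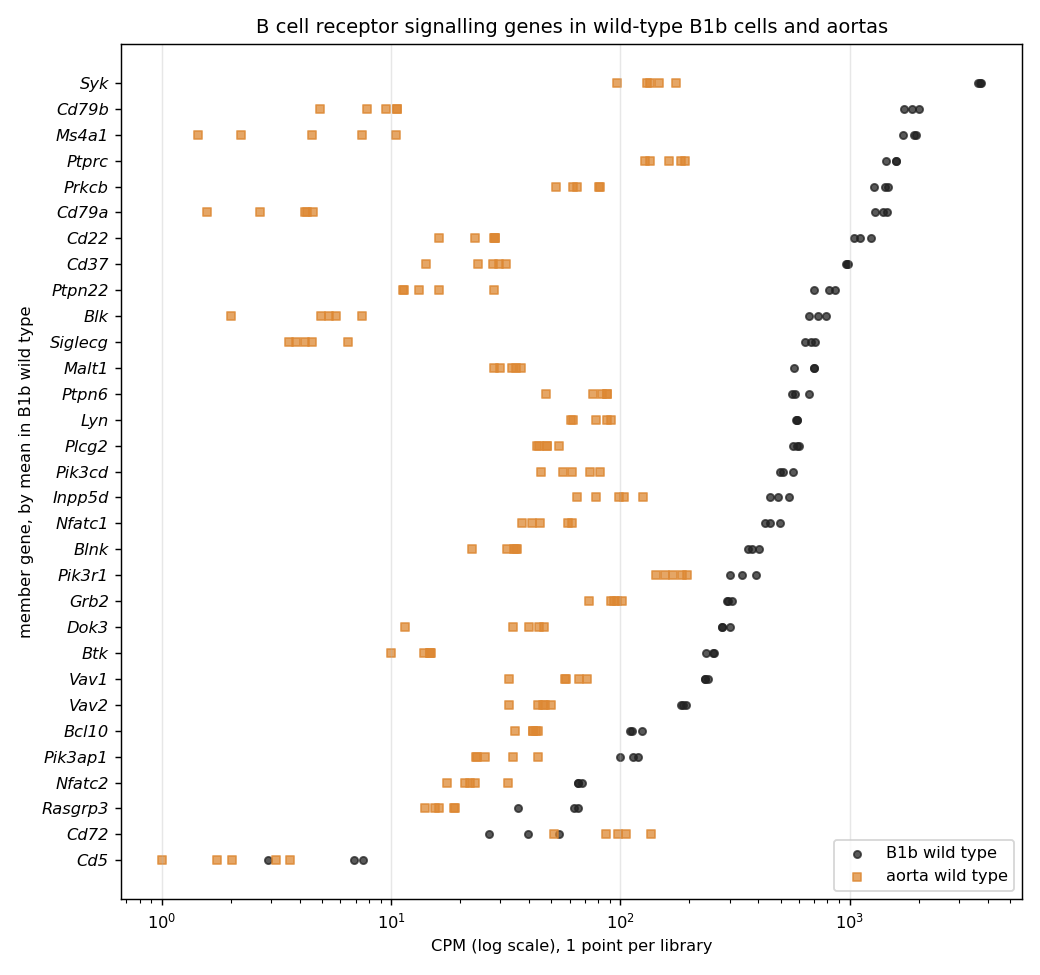
Level of each of the 31 genes in CPM (log axis, 1 point per library) in 3 wild-type B1b libraries and 5 wild-type aortas, ordered by the B1b mean. Ms4a1, Cd79a, Cd79b, Blk and Siglecg lie furthest apart, Pik3r1 lies close together, and Cd72 is the gene whose aortas lie mostly to the right of the B1b cells.

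Ptprc offered a second readout, since its transcripts differ by the variable exons that define B220. B220 is the form of CD45 that keeps these exons and is typical of B cells, while many other leukocytes skip some or all of them. The transcript NM_001111316 has 3 exons more than NM_011210, at chr1:138117754-138117894, chr1:138120020-138120166 and chr1:138122456-138122584 (GRCm38), 417 bases in all or 8.87% of the 4702 bases of the shorter one. Their end exons also differ in length, at 1366 and 60 bases in the longer transcript and 1372 and 99 in the shorter one. How reads were assigned to transcripts that share exons is not given in the sources used here, so the ratio below compares the deposited counts of both transcripts and is not a count of reads in the 3 exons. In wild-type B1b cells the count of the longer transcript was 110.77%, 109.93% and 109.34% of that of the shorter one, and in cre B1b cells 109.64%, 109.96% and 108.58%. In wild-type aortas it was 100.77%, 102.12%, 100.83%, 101.26% and 102.95%, and in cre aortas 100.5%, 104.76%, 101.23%, 100.59% and 100.23%. The 6 B1b libraries and the 10 aortas did not overlap (exact 2-sided permutation test over 8008 arrangements, p = 0.000125, the smallest they can give, and 0.000375 adjusted over the 3 genes examined). The highest aorta, cre replicate 2, rests on 198 against 189 counts. Between the genotypes the ratio did not pass in B1b cells (exact permutation over 20 arrangements, p = 0.5, where the smallest possible is 0.1) or in aortas (exact permutation, p = 0.881). The test was chosen after the values were seen, so its p adds little to the lack of overlap. The sort gated on B220, so this ratio may have been partly set by the gate in B1b cells of both genotypes.

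**Figure D2:**
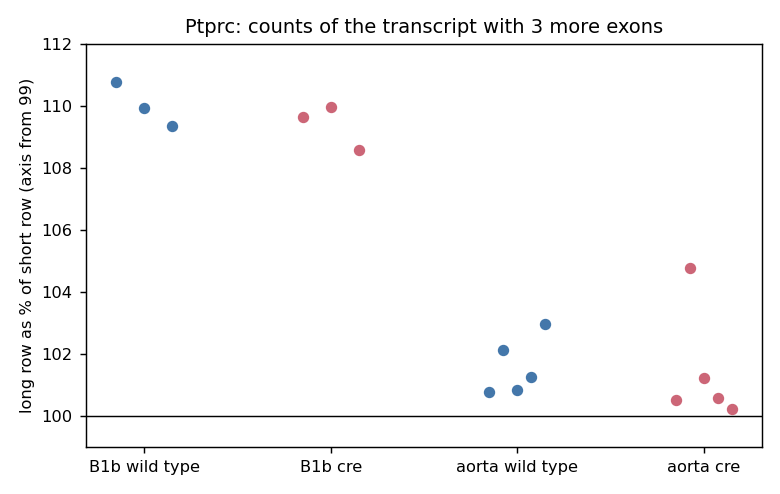
Count of the Ptprc transcript with 3 more exons as a percentage of that of the shorter transcript, 1 point per library in the 4 groups, on an axis that starts at 99%. The B1b libraries of both genotypes lie from 108.58% to 110.77% and the aortas from 100.23% to 104.76%.

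The same reading was made for 1 pair of transcripts each of Prkcb and Nfatc2, chosen after the values were seen. Nfatc2 has 18 transcripts in the table, of which only this pair was compared, and Nfatc1, whose lowest transcript had 87.1% of the count of its highest, was not read this way. For Prkcb the lower transcript, NM_001316672, had 32.5% ± 0.911 of the count of NM_008855 in wild-type B1b cells (SD, n = 3) and 29.5% ± 2.78 in wild-type aortas (SD, n = 5), and B1b cells and aortas did not differ beyond their spread (exact permutation, p = 0.509). For Nfatc2 the transcript NM_001037177 had 25.8% ± 2.96 of the count of NM_001136073 in wild-type B1b cells and 14.9% ± 5.03 in wild-type aortas, and over all 16 libraries the difference passed (exact permutation, p = 0.00487, adjusted p = 0.00731). The aortic ratios rest on 0 to 40 counts of NM_001037177 a library. Aorta cre replicate 3, at 25.5%, and wild-type replicate 2, at 21.8%, lay inside the B1b range of 19.9% to 29.0%. Neither the Prkcb nor the Nfatc2 ratio passed between the genotypes, with exact permutation p from 0.5 to 0.825.

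The central comparison set cre B1b cells against wild-type B1b cells. None of the 31 genes passed the threshold (edgeR quasi-likelihood test, adjusted over 11732 genes, of which 83 or 0.707% passed). At an unadjusted p under 0.05 there were 9 lower and 3 higher genes, where 5.69% and 7.63% of all genes were. DESeq2 called 4 of the 31, Cd72, Nfatc1, Pik3ap1 and Ptpn6, all lower, where 0.554% of all genes were, and limma-voom called 0, where 0.682% of all genes passed. Without a filter on low counts edgeR called these 4 and Inpp5d, where 1.69% of all genes passed. Of the log2 ratios 23 were below 0 and 8 above, with a median of -0.10, against -0.005 over all genes tested. For 9 genes every cre library lay below every wild-type library and for 3 above, where 7.63% and 10.4% of all genes were so. The median over the 31 genes of the log2(CPM + 1) deviation from the wild-type mean was -0.108, -0.117 and -0.066 in the cre libraries and -0.012, -0.014 and 0.033 in wild type.

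**Figure D3:**
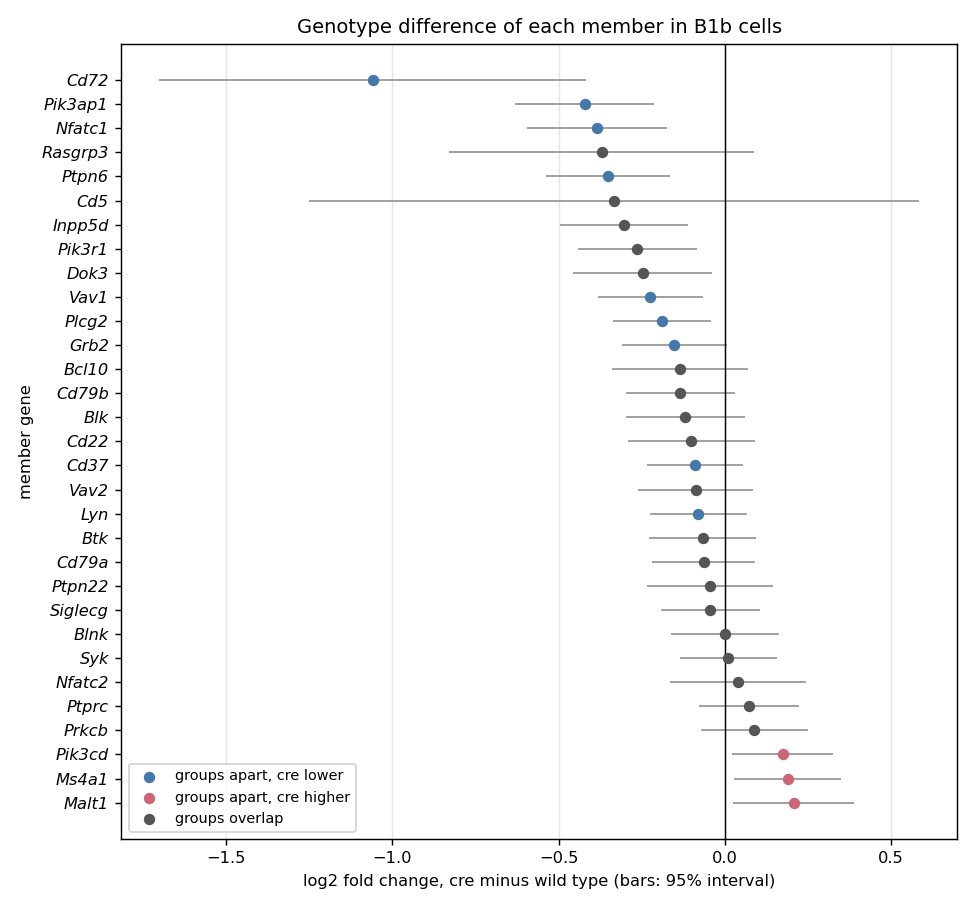
Log2 ratio (log2 fold change) of each of the 31 genes in B1b cells, cre minus wild type, with its 95% interval (edgeR). Blue points are the 9 genes whose cre libraries all lie below wild type, red points the 3 that all lie above, and grey points the genes whose groups overlap. Most points lie between -0.5 and 0.25, with Cd72 apart at -1.06.

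The receptor chains and the kinases next to them had log2 ratios from -0.13 to 0.01, none past the threshold. Cd79a averaged 1379 ± 82.5 CPM in wild type against 1333 ± 62.7 in cre (SD, n = 3 each), with a 95% interval of the log2 ratio from -0.22 to 0.09. Cd79b stood at 1869 ± 146 and 1721 ± 96.7 CPM, with an interval from -0.30 to 0.03. Syk, at 3689 ± 72.7 and 3754 ± 133 CPM, had a log2 ratio of 0.01 with an interval from -0.14 to 0.16. With 3 libraries a group, differences of any size inside these intervals remain compatible with the values. Lyn, Btk and Blk had log2 ratios of -0.08, -0.07 and -0.12. Of these 6 genes 0 had an unadjusted p under 0.05, though for Lyn the cre libraries, at 580.0, 541 and 560.2 CPM, all lay below the wild-type ones, at 588, 582 and 589 CPM.

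Among the adaptors and lipid enzymes, Pik3ap1 came closest to the threshold of all 31 genes. Pik3ap1 (NM_031376, chr19:41272541-41385102), whose promoter is printed above, stood at 113, 99.2 and 119 CPM in wild type and at 92.1, 79.4 and 78.6 CPM in cre. All 3 cre libraries lay below the lowest wild-type library. The log2 ratio was -0.42 (SE 0.10, edgeR adjusted p = 0.0584), and it missed the threshold. It passed by DESeq2 (adjusted p = 0.0227) and by edgeR without wild-type replicate 2 (adjusted p = 0.0471). Pik3r1 stood at 299.9, 389 and 339 CPM in wild type and at 301, 272 and 292 CPM in cre, with cre replicate 1 just above wild-type replicate 1 and a log2 ratio of -0.26 (SE 0.09, edgeR adjusted p = 0.167). Pik3cd, the catalytic partner of that subunit, was at the other side, at 499, 510.3 and 567.5 CPM in wild type against 602, 603 and 592 in cre, a log2 ratio of 0.17 (SE 0.07, edgeR adjusted p = 0.309). The groups of Pik3cd did not overlap.

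Vav1 was at 234, 235 and 242 CPM in wild type against 197, 204 and 215 in cre, and Plcg2 at 586, 602 and 565 and 527, 503 and 524 CPM. For both, and for Grb2, every cre library lay below every wild-type library. Their log2 ratios were -0.22 (SE 0.08), -0.19 (SE 0.07) and -0.15 (SE 0.08), with edgeR adjusted p of 0.189, 0.244 and 0.397. Vav2 stood at -0.09, and Blnk, at 379 ± 21.3 CPM in wild type against 383 ± 28.8 in cre, had an interval from -0.16 to 0.16.

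Of the distal genes Nfatc1 had the lowest p. Nfatc1, the NFAT factor that B-1a cells of the mouse are known to need, stood at 496, 427 and 448 CPM in wild type and at 352, 298 and 412 CPM in cre. Every cre library was below every wild-type library, with cre replicate 3 the closest. The log2 ratio was -0.38 (SE 0.10, edgeR adjusted p = 0.0898), and it missed the threshold. Malt1 was higher, at 569, 697 and 696 CPM in wild type against 725, 850.3 and 713 in cre, a log2 ratio of 0.21 that did not pass (SE 0.09, edgeR adjusted p = 0.311). Its partner Bcl10 stood at -0.14, Prkcb at 0.09 and Nfatc2 at 0.04, with intervals that all included 0. Rasgrp3 was at 62.8, 35.8 and 65.3 CPM in wild type, where replicate 2 lay below all cre libraries, and at 47.8, 40.7 and 39.8 CPM in cre, a log2 ratio of -0.37 (edgeR adjusted p = 0.488). Without wild-type replicate 2 it was -0.59 and passed (edgeR adjusted p = 0.0446).

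Cd72 had the largest log2 ratio of the 31 in B1b cells, and also a wide spread. It stood at 54.2, 26.7 and 39.6 CPM in wild type and at 23.3, 13.3 and 21.5 CPM in cre. The lowest wild-type library, replicate 2, was just above the highest cre library. The log2 ratio was -1.06 (SE 0.28, 95% interval from -1.70 to -0.42, edgeR adjusted p = 0.153), and it passed by DESeq2 (adjusted p = 0.00206) and by edgeR without wild-type replicate 2 (adjusted p = 0.00593). Of the other inhibitory membrane genes, Siglecg and Cd22 lay near 0, at -0.04 (95% interval from -0.19 to 0.10) and -0.10 (-0.29 to 0.09). Cd5 stood at -0.33, with a wide interval from -1.25 to 0.59. Ms4a1 stood at 1702, 1903 and 1939 CPM in wild type against 1943, 2266 and 2173 in cre, without overlap, a log2 ratio of 0.19 (SE 0.08, edgeR adjusted p = 0.298). Cd37 stood at -0.09.

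Among the phosphatases, Ptpn6 and Inpp5d had the lowest p. Ptpn6 (NM_013545, chr6:124720707-124738709) stood at 663, 576 and 558 CPM in wild type and at 439, 449.8 and 535 CPM in cre. The cre libraries all lay below the wild-type ones, replicate 3 by the smallest margin. The log2 ratio was -0.35 (SE 0.09, edgeR adjusted p = 0.0797), and it missed the threshold. Inpp5d stood at 489, 450.4 and 544 CPM in wild type and at 457, 353 and 404 CPM in cre, with an overlap between wild-type replicate 2 and cre replicate 1, and a log2 ratio of -0.30 (SE 0.09, edgeR adjusted p = 0.144). Dok3 stood at -0.25 (edgeR adjusted p = 0.296), where cre replicate 3, at 288 CPM, lay inside the wild-type range and the other cre libraries, at 235 and 205 CPM, below it. Without cre replicate 3, Dok3, Nfatc1 and Ptpn6 passed (edgeR adjusted p = 0.0497, 0.0104 and 0.0174). Ptprc at 0.07 and Ptpn22 at -0.04 had intervals from -0.08 to 0.22 and from -0.23 to 0.15.

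**Figure D4:**
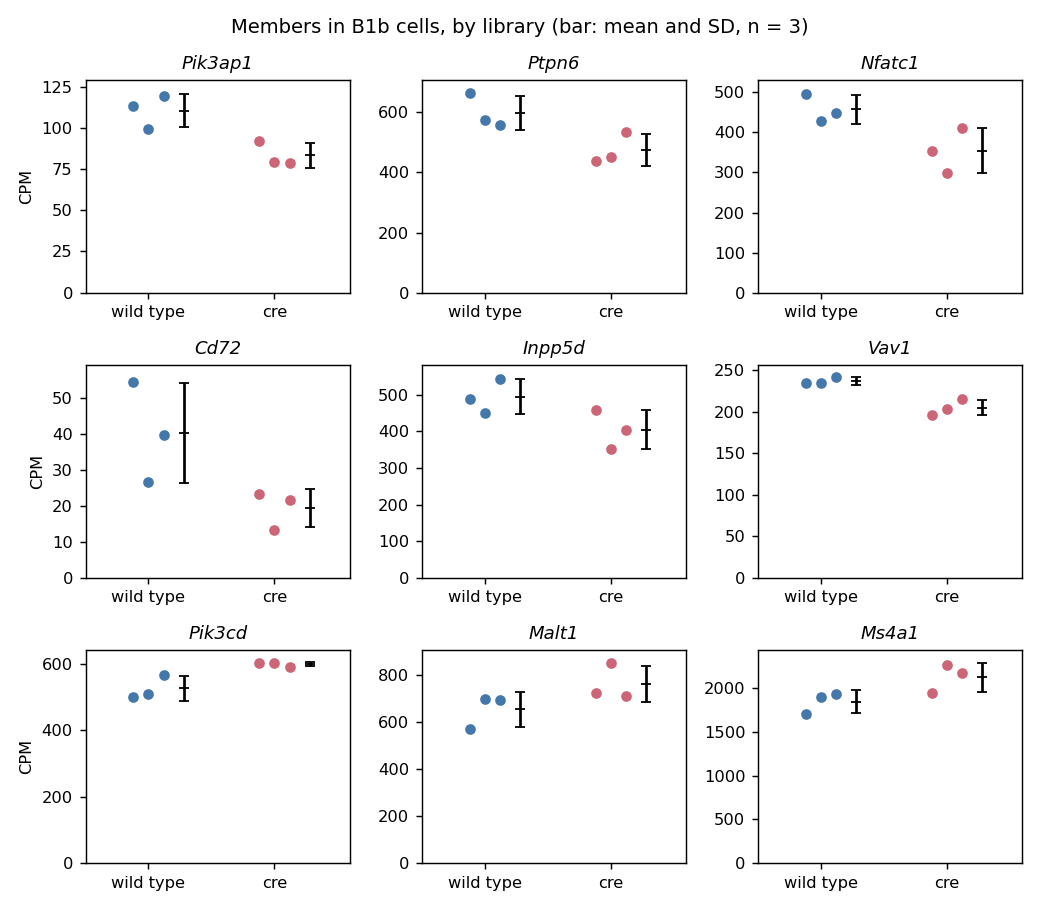
Level of 9 of the genes in B1b cells, in CPM, 1 point per library with the group mean and SD (n = 3 each). In the first 6 panels, Pik3ap1, Ptpn6, Nfatc1, Cd72, Inpp5d and Vav1, the cre mean is lower, and in the last 3, Pik3cd, Malt1 and Ms4a1, it is higher.

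Other genes of the pathway and other cells' markers were read beside these values. Of 35 further genes that act at the membrane or next to the receptor, 0 rose, 1 fell and 34 did not pass in cre B1b cells (edgeR). Of all 11732 genes tested there, 57 rose and 26 fell. The median log2 ratio of the 35 was -0.03. Themis2, a B cell signalling adaptor, stood at 173, 167 and 160.1 CPM in wild type against 143, 115 and 131 in cre, a log2 ratio of -0.38 (edgeR adjusted p = 0.0600). The scaffold gene Bank1 stood at 1004, 1123 and 1093 and 1254, 1452 and 1310.5 CPM, a log2 ratio of 0.30 (edgeR adjusted p = 0.0691). Neither passed, and for both the groups did not overlap. Of 35 further genes of calcium, kinase and phosphoinositide signalling, 1 rose, 0 fell and 34 did not pass, with a median of 0.008. The one that rose was Pik3r5, a regulatory subunit of phosphoinositide 3-kinase gamma, from 152, 190.4 and 174 CPM to 254, 244 and 202 CPM, a log2 ratio of 0.42 (SE 0.10, edgeR adjusted p = 0.0468). It no longer passed with wild-type replicate 1 left out (edgeR adjusted p = 0.203), nor with wild-type replicate 3 (0.0808), nor with cre replicate 1 (0.196) or 2 (0.181). It did not pass by limma-voom (adjusted p = 0.0689), on summed transcripts (edgeR adjusted p = 0.171) or in the fit of all libraries either. Ppp3ca, a catalytic subunit of the phosphatase calcineurin that activates NFAT, stood at 0.23 and the kinase gene Map2k2 at -0.31, and neither passed (edgeR adjusted p = 0.153 and 0.163).

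Genes that receptor stimulation is known to induce were read as a further list. Where 57 of all 11732 genes tested rose and 26 fell, 0 of 18 such genes rose and 12 did not pass (edgeR). The 6 that fell were Fosb, Cd69, Cd83, Ppp1r15a, Gadd45b and Egr3. The median log2 ratio of the 18 genes was -0.63. Genes of this list respond to other stimuli and to cell handling as well. Fosb, an AP-1 factor, kept its call whichever of the 6 libraries was left out. Leaving out wild-type replicate 1 or cre replicate 2 ended the calls of Cd69 and Cd83, and leaving out cre replicate 1 ended that of Cd83 too. Egr3 lost its call in every such fit but that without wild-type replicate 2, and Gadd45b and Ppp1r15a lost theirs in all 6. On summed transcripts, where 7 genes were higher and 4 lower in all, Fosb was the one of the 6 that still passed, with edgeR adjusted p of 0.0805 for Cd69 and 0.127 for Cd83. In the fit of all libraries, where 0 genes passed, none of the 6 did (edgeR adjusted p = 0.154 for Fosb). By limma-voom Egr3 and Gadd45b did not pass (adjusted p = 0.0800 and 0.0556). The range of the summed level of these 18 genes was 1601 to 1727 CPM in wild type and 1485 to 1495 CPM in cre.

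Markers of other B cells, plasma cells and macrophages were set beside these values. The 5 markers of conventional B-2 cells, which lie outside the 31 genes, summed to 2284 to 2406 CPM in wild type and 2043 to 2131 CPM in cre, with 0 of 5 passing (edgeR). The 12 macrophage markers summed to 114.3 to 224.7 CPM in wild type and 277.9 to 318.8 CPM in cre. Of the 10 tested 1, Csf1r, rose (edgeR adjusted p = 0.0357), where 57 of all 11732 genes tested did. The 6 further B cell markers overlapped, at 2859 to 3239 CPM in wild type and 3089 to 3165 CPM in cre. None of the 12 macrophage genes was at 0 in all 6 libraries. The 5 plasma cell markers summed to 387 to 433 CPM in wild type and 401 to 503 CPM in cre, and 1 of them, Jchain, the joining chain of secreted IgM, rose from 4.75, 2.18 and 6.55 CPM to 12.7, 16.4 and 18.1 CPM (edgeR adjusted p = 0.00677). The part of any of these cell types in the values of Cd72, Ptpn6, Nfatc1 or Pik3ap1 was not tested.

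In the aortas 30 of the 31 genes were tested and Cd5 did not pass the filter on low counts. None of the 30 passed (edgeR, adjusted over 13364 genes, of which 2 or 0.015% passed). DESeq2 and limma-voom also called 0 of them, where 1.53% and 0.00748% of all genes passed. At an unadjusted p under 0.05 there was 1, Ptprc, where 12.6% of all genes were. The groups were apart for 0 of the 30, where 2.87% of all genes were. Of the log2 ratios, cre minus wild type, 16 were above 0 and 14 below, and their median was 0.03. That sign turned when single libraries were left out. The median was -0.15 without aorta cre replicate 2, -0.09 without cre replicate 5, -0.03 without cre replicate 1, -0.05 without wild-type replicate 5 and -0.04 without wild-type replicate 3.

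Ptprc, which every leukocyte expresses, stood at 191, 163, 135, 184 and 128 CPM in wild-type aortas and at 149, 119, 77.7, 89.5 and 133 CPM in cre aortas. The groups overlapped, with 3 of the 5 cre aortas below the lowest wild-type aorta. The log2 ratio was -0.48 (SE 0.18, unadjusted p = 0.0211, edgeR adjusted p = 0.320). Nfatc2, found in many leukocytes, stood at -0.49 (SE 0.24) and Cd72 at -0.49 (SE 0.28), with edgeR adjusted p of 0.414 and 0.490. All 5 phosphatases and inhibitory adaptors had values below 0, from -0.48 to -0.05, and none passed. The 12 macrophage markers summed to 2435 to 5906 CPM in wild type and 3764 to 6641 CPM in cre, so the ranges overlapped.

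The genes with the largest differences between B1b cells and aortas were highest in 1 cre aorta. Cd79a stood at 4.58, 4.28, 2.69, 1.58 and 4.20 CPM in wild type and at 3.92, 29.4, 2.84, 1.72 and 2.16 CPM in cre. Ms4a1 stood at 7.48, 4.51, 2.22, 1.44 and 10.5 CPM in wild type and at 3.43, 16.8, 3.79, 2.25 and 3.40 CPM in cre. Cre replicate 2, the shallowest library with 1645926 counts, was the highest aorta for both, and it was the highest for Cd79b, Blk and Siglecg too. It was also the highest aorta for Syk (222 CPM), Ptpn22 (29.4 CPM) and Cd5 (4.20 CPM), so this was not particular to those genes. Cd79a had a log2 ratio of 1.07 (SE 0.78, edgeR adjusted p = 0.594), which was -0.36 without that library. Ms4a1 went from 0.14 to -0.60, Blk from 0.27 to -0.64, Siglecg from 0.16 to -0.45 and Cd79b from 0.08 to -0.35 when it was left out. Of these differences none passed, with or without it. Cd22, also an inhibitory receptor of B cells, did not follow, with 23.2, 28.2, 28.3, 28.5 and 16.3 CPM in wild type against 32.8, 28.2, 25.4, 26.8 and 42.2 in cre, where cre replicate 5 was highest.

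**Figure D5:**
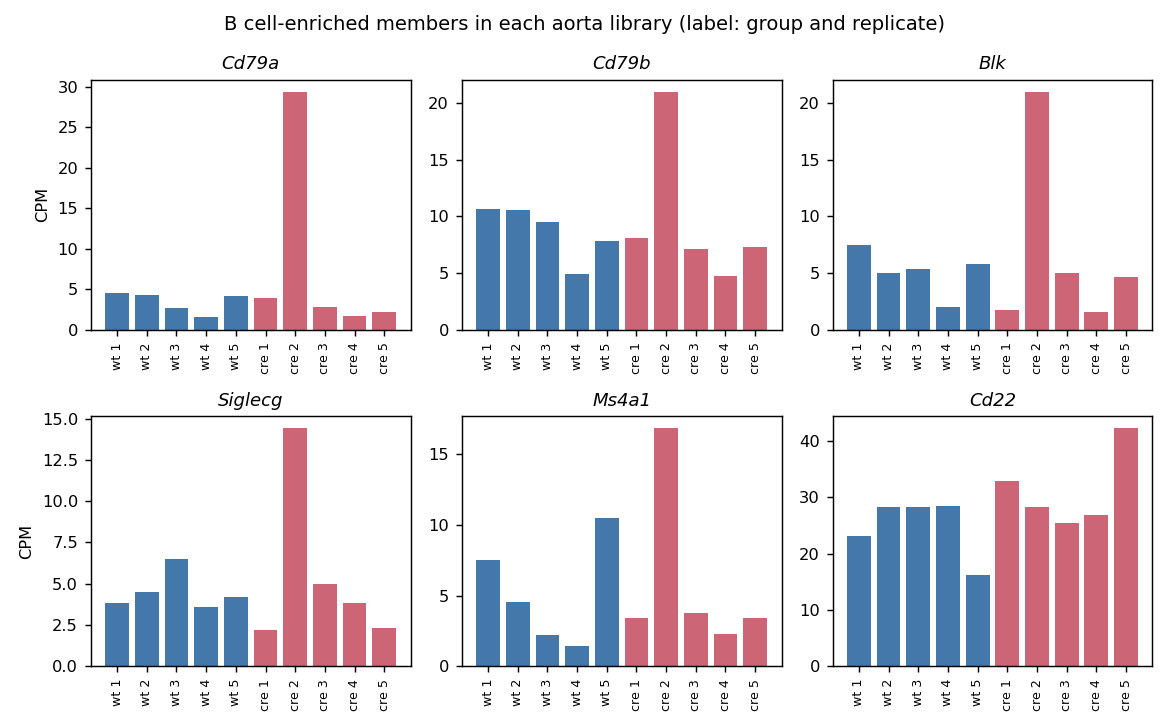
Level of Cd79a, Cd79b, Blk, Siglecg, Ms4a1 and Cd22 in each of the 5 wild-type (blue) and 5 cre (red) aortas, in CPM, 1 bar per library from 0. Cre replicate 2 is the tallest bar for the first 5 genes, and cre replicate 5 for Cd22.

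Of the further pathway genes in aortas, 1 of 31 tested at the membrane or next to the receptor rose and 0 fell. Of all 13364 genes tested, 2 rose and 0 fell. Of 35 distal genes 0 passed, and of 18 stimulus-induced genes 0 passed (edgeR). In these lists 3 and 2 genes had an unadjusted p under 0.05, where 12.6% of all genes did. Markers of heart muscle summed to 398.2 to 1766 CPM in wild type and 503.6 to 5189 CPM in cre, and markers of fat cells to 517.7 to 2712 and 1004 to 3302 CPM. All 6 heart muscle markers had log2 ratios above 0, with a median of 3.29. Of these 0 passed (edgeR), 4 had an unadjusted p under 0.05, and for 3 every cre aorta lay above every wild-type aorta. Of all genes tested, 12.6% had such a p and 2.87% had groups apart, both in either direction. The 4 fat cell markers tested also lay above 0, with a median of 0.75, and 0 passed. The part of these tissues in the aortic values of the 31 genes was not tested.

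Whether the genotype difference itself differed between B1b cells and aortas was tested with an interaction term over all 16 libraries. The interaction passed for 0 of the 31 genes (edgeR, where 0.0199% of 15091 genes passed), and for 0 by DESeq2 and by limma-voom, where 1.15% and 0.0133% did. In the edgeR fit of all libraries the genotype difference in B1b cells passed for 0 genes, against 83 when B1b cells were fitted apart. The absence of a call here therefore says little about the B1b side. At an unadjusted p under 0.05 there was 1, where 11.1% of all genes were. That gene was Malt1, with a difference of 0.43 on the log2 scale (SE 0.21, edgeR adjusted p = 0.449), from 0.21 in B1b cells and -0.23 in aortas. Ptprc came next, with 0.54 (SE 0.26, edgeR adjusted p = 0.454), from 0.07 in B1b cells and -0.48 in aortas. For Pik3ap1 the difference was -0.45 with a 95% interval from -1.07 to 0.17, for Ptpn6 -0.11 with one from -0.67 to 0.44, and for Cd72 -0.57 with one from -1.53 to 0.39. For Cd79a, scarce in aortas, the interval ran from -2.81 to 1.08.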

How the data were processed

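RNA was measured by sequencing in 16 samples, with libraries made from total RNA by an mRNA kit, per the labels' protocols. The submitters' processing notes list CASAVA 1.8.2, STAR 2.5.2b and mm10. How reads were counted, with which annotation and whether by strand, is not given in the sources used here, so reads of overlapping genes on opposite strands cannot be told apart. The deposited values are raw read counts per RefSeq transcript, not normalized by the authors, and columns were matched to samples by title. Of 35745 transcripts 35628 were named (35440 by RefSeq, 188 by GENCODE). The 117 unnamed ones, with 0.24% to 2.5% of a library's counts, stayed in as entries of their own. Transcripts of 1 gene share reads, so the transcript of highest total was kept per gene.

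B1b cells and aortas were then fitted apart in edgeR 4.0.16 (R 4.3.3; TMM, filterByExpr by group, robust quasi-likelihood F test, Benjamini-Hochberg over all genes tested, threshold 0.05). CPM used TMM-scaled library sizes within each kind of sample. SE is the absolute log2 fold change over the root of F, and intervals are 95%. DESeq2 1.42.0, limma-voom (limma 3.58.1), RLE size factors, no filter on low counts, summed transcripts, a fit of all libraries, omission of aortas under 2000000 counts and of each library were the alternatives. The scripts were tested on simulated counts. The members, lists and tests were chosen with earlier results of these data known. All members were named, with Cd40, and from each further list the genes that passed and the 3 of smallest p in B1b cells. In the stimulus-induced list these are among those that passed. 1 gene that this rule names is not reported here, though it stays in the counts. Protein sequences were not used here.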

Additional observations from a re-analysis of the deposited data

Results flagged for a closer look

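Of 62 groups of 5 aortas examined, 9 held a library whose gap to the nearest other passed Dixon's 95% limit, where chance gives about 1 in 20 groups. The groups are genes read in the same 10 aortas and are not independent, so no excess over that share can be read from the count. In 5 of the 9 this was aorta cre replicate 2, which was high for Cd79a (29.42 CPM), Cd79b (21.01 CPM), Blk (21.01 CPM), Siglecg (14.41 CPM) and Ms4a1 (16.81 CPM). These rest on 49, 35, 35, 24 and 28 reads. Pax5 (5.40 CPM), Fcrla (11.4 CPM), Pou2af1 (19.8 CPM) and Spib (10.2 CPM), B cell markers outside the 31 genes, were also high in that library. With Ebf1 and Cr2 these markers summed to 151.9 CPM there, below the 171.0 CPM of aorta wild-type replicate 5. The 5 markers of B-2 cells summed to 35.4 CPM, the highest of the 10 aortas. Of these, Ccr7 stood at 10.8, Cr2 at 1.801 and Fcer2a at 0.600 CPM. The part of any of these markers in the 5 values was not tested.

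In 3 of the 9 it was aorta wild-type replicate 5, which was low for Btk (9.966 CPM), Blnk (22.55 CPM) and Ptpn6 (47.21 CPM). These rest on 19, 43 and 90 reads in a library of 1979777 counts. That library had the lowest sum of macrophage markers, 2435 CPM against 3708 to 5906 CPM in the other wild-type aortas, and the highest sum of fat cell markers among wild-type aortas, 2712 CPM. Their part was not tested. In the last, aorta wild-type replicate 3 was low for Bcl10 (34.84 CPM), against 41.4 to 43.8 CPM in the other 4. Groups of 3 B1b libraries are too small for this limit.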

How the results depend on the processing

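No paired analysis was possible because the groups compared within a kind of sample share no number in the titles and the order of samples pairs nothing. In B1b cells the count of members past the threshold, 0, was 4 with DESeq2 (Cd72, Nfatc1, Pik3ap1, Ptpn6) and 5 without a filter on low counts (these and Inpp5d), was 0 with RLE size factors, limma-voom, summed transcripts or all libraries in 1 fit, and ran from 0 to 3 when a library was left out. The B1b median, -0.10, ran from -0.1466 to -0.07331 there. In aortas the count stayed 0 in every fit run, while the median, 0.03, was -0.0892 with limma-voom, -0.01841 in the fit of all libraries and -0.1806 without the aortas under 2000000 counts, and ran from -0.1462 to 0.1078 with a library left out. The causes were not tested.

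Of the single log2 fold changes, none of which passed, 5 of 31 in B1b cells and 15 of 30 in aortas changed sign somewhere. In B1b cells Blnk was -0.003786 with limma-voom and -0.006213 in the fit of all libraries. With a library left out, Blnk ran from -0.03242 to 0.07476, Ptpn22 from -0.1308 to 0.02384, Nfatc2 from -0.008223 to 0.1146, Cd5 from -0.7777 to 0.03064 and Syk from -0.0005152 to 0.0384. In aortas limma-voom gave Blk -0.3651, Cd37 -0.0198, Cd79b -0.1732 and Siglecg -0.3108, and the fit of all libraries gave Cd79b -0.001278 and Siglecg -0.01841. Without the aortas under 2000000 counts, Blk was -0.5992, Cd37 -0.1245, Cd79a -0.2926, Cd79b -0.3768, Ms4a1 -0.2405, Pik3ap1 -0.01042, Pik3cd -0.02765, Siglecg -0.466, Syk -0.01514, Vav1 -0.09957 and Vav2 -0.01806. With a library left out, aortic values ran from -0.6296 to 0.08488 for Ptpn22, -0.1441 to 0.2007 for Pik3ap1, -0.03223 to 0.1535 for Bcl10, -0.6419 to 0.5477 for Blk, -0.3593 to 1.352 for Cd79a, -0.3524 to 0.2551 for Cd79b, -0.6019 to 0.5079 for Ms4a1, -0.4466 to 0.38 for Siglecg, -0.1765 to 0.06836 for Inpp5d, -0.1781 to 0.0569 for Lyn, -0.1201 to 0.1187 for Cd37 and -0.07914 to 0.1586 for Vav1. The causes were not tested. The comparisons of B1b cells with aortas kept 30 or 31 calls in every fit run, and the one gene whose call moved was Cd5. Aortic counts of Cd79a, Blk, Siglecg and Ms4a1 were 7 to 49 reads a library, which limits what can be seen there.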
